A study of Mus musculus with 8 samples.

Results

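The calnexin and calreticulin chaperones of the endoplasmic reticulum (ER) and the enzymes that work beside them were examined in mouse testis, as 3 genes restricted to germ cells (Clgn, Calr3 and Pdilt) and 6 general genes (Calr, Canx, P4hb, Pdia3, Hspa5 and Hsp90b1). The rule named the members by gene and set no threshold on measured values. Probe sets were then found by gene symbol, which gave 20, and by gene identifier for Pdilt, whose 2 probe sets carry the older symbol 1700007B13Rik. In all, 22 of the 45101 probe sets of the array measured these 9 genes, 8 for the testis chaperones and 14 for the general ones.

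The study removed Ctcfl, which codes for a testis-specific relative of the chromatin protein CTCF, and asked which transcripts differ in the testis. Testes were taken at postnatal day 23 and their RNA was measured on Affymetrix Mouse430_2 arrays, with 5 samples labelled wildtype (replicates 1, 2, 4, 6 and 7) and 3 labelled knockout (replicates 3, 5 and 8), called mutant here. The mice were kept on a C57/Bl6 background. Mutant mice were homozygous for a Ctcfl del allele that lacks exons 1 to 8, with GFP coding sequence joined to the Ctcfl reading frame. The study's text speaks of heterozygous littermates as controls, whereas the labels say wildtype, and the labels' name is used here. All cells of the testis contributed to each RNA. The level of Ctcfl was not analysed here and could not be used to check the genotype labels. The labels do not say that each sample came from its own animal, so p-values measure the spread between these samples, which may be technical.

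Proteins that enter the ER with N-linked glycans are held by calnexin (Canx), which sits in the membrane, and by calreticulin (Calr), its soluble relative. Both work with the disulfide isomerase ERp57 (Pdia3), while P4hb is the classical protein disulfide isomerase. BiP (Hspa5) and GRP94 (Hsp90b1) are the ER members of the Hsp70 and Hsp90 families. Male germ cells add calmegin (Clgn), a homolog of calnexin, calreticulin 3 (Calr3, also called calsperin) and the isomerase-like protein PDILT (Pdilt). Sperm of mice without any of these germ cell proteins lack mature ADAM3 on their surface and are infertile.

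The general chaperones are textbook targets of the unfolded protein response, which acts through the ER stress response element. Its letters, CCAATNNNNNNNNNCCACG, were searched on both strands in the RefSeq promoter windows (GRCm38.p6, 250 bases before to 50 after each annotated start), of which 39 of 32851 held it (0.119%). Of the 8 members with a window, 4 held it, namely Hspa5, Calr, Canx and Hsp90b1, the last with 2 copies. The windows of P4hb, Pdia3, Calr3 and Pdilt did not hold these letters. The copies are shown to let the general promoters be set against the testis ones, each on the strand of the gene with 10 bases on either side and the fixed letters of the element in capitals. The Hspa5 copy lies at chr2:34772015-34772053 on the plus strand and the Calr copy at chr8:84847065-84847103 on the minus strand. The Canx copy lies at chr11:50325790-50325828 on the minus strand. The copies of Hsp90b1 lie at chr10:86705628-86705666 and chr10:86705523-86705561, both on the minus strand. The Calr copy and copy 2 of Hsp90b1 read in the opposite direction, so that their capitals are the reverse complement.
Hspa5: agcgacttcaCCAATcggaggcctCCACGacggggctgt
Calr: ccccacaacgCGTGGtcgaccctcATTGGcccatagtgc
Canx: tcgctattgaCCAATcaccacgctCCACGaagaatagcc
Hsp90b1 copy 1: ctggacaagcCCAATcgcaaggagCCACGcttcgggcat
Hsp90b1 copy 2: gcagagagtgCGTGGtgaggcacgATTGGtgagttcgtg

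The element of Hspa5 spans bases 65 to 47 before the start, that of Calr 162 to 144 and that of Canx 145 to 127. Those of Hsp90b1 span 212 to 194 and 107 to 89. The testis promoters are shown over the 170 bases before an annotated start, since Calr3 and Pdilt are the members whose levels varied most between arrays. The Calr3 stretch lies at chr8:72443779-72443948 and the Pdilt stretch at chr7:119523483-119523652, both on the minus strand. The Calr3 stretch belongs to 1 of its 2 windows and overlaps the end of the interval annotated for its gene, which reaches chr8:72443819. The Pdilt stretch lies wholly inside the interval annotated for its gene, which reaches chr7:119529036, so it precedes a start within that interval. Capitals mark the CCAAT box (CCAAT), the core of the X-box bound by RFX factors (GTTGCC) and the core of the cAMP response element (TGACG, here as its reverse complement).
Calr3: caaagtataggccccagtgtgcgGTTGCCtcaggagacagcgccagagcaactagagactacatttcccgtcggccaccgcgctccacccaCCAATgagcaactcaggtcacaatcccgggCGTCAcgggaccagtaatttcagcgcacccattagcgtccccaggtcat
Pdilt: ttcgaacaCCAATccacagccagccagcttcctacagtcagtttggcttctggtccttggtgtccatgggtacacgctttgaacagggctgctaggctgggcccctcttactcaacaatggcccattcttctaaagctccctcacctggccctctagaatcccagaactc

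The CCAAT box, which is also the first part of the ER stress response element, was in the windows of all 8 members and in 37.4% of all windows. The X-box core was in 12.5% of all windows and, among the members, in those of Calr3 alone. The core of the cAMP response element was in 20.8% of all windows and in those of Calr3, Canx, Hspa5, P4hb and Pdia3. The whole cAMP response element (TGACGTCA) was in 1.79% of windows and in none of the members' windows. These matches describe the letters only, since binding to these promoters was not part of the measurements used here.

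Levels are log2 values after the authors' normalisation, in which the medians of the 8 arrays lay close together. Levels of different probe sets are not compared with each other, since each probe set has its own brightness, and the array gives no detection call after this normalisation. Where a gene had several probe sets, the main one is that whose identifier has no _a, _s or _x suffix, if there is one, then the one with the highest mean.

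The arrays did not group by genotype for the testis chaperones. Earlier results of these data showed that wildtype replicate 7 and mutant replicate 8 stand apart from the other 6 arrays, with more spermatid RNA. Both were above those 6 on 4 of the 8 probe sets of Clgn, Calr3 and Pdilt and on 1 of the 14 of the general chaperones. Over all 45101 probe sets 8.60% had this order. By contrast, 1 testis and 3 general probe sets were lower on these arrays than on the other 6, an order that 10.3% of all probe sets had. With a mean at least 1 log2 unit above that of the other 6, which 0.920% of all probe sets had, there were 4 testis probe sets, 2 of Calr3 and 2 of Pdilt, and 0 general ones.

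Calr3 codes for the testis form of calreticulin. On its main probe set, 1453232_at, the wildtype arrays read 4.79, 5.26, 5.47, 5.47 and 7.90 (replicates 1, 2, 4, 6 and 7) and the mutant arrays 4.67, 4.85 and 7.18 (replicates 3, 5 and 8). One array of each genotype was thus far above the rest, and the genotypes overlapped. Wildtype replicate 7 was 2.66 above the mean of the other wildtype arrays on the log2 scale, a 6.30-fold difference. Mutant replicate 8 was 2.42 above the mean of the other mutant arrays, a 5.35-fold difference. The mean of these 2 arrays lay further above the other 6 than for 99.96% of all probe sets.

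The other probe sets of Calr3 did not all follow. Probe set 1453233_s_at read 5.46, 5.70, 5.64, 5.61 and 7.29 on the wildtype arrays and 5.52, 5.49 and 6.97 on the mutant arrays, so that the same arrays were high, by 3.22-fold and 2.77-fold within their genotype. Probe set 1431255_at read between 4.06 and 4.93, with wildtype replicate 7 0.10 and mutant replicate 8 0.62 below the mean of their genotype's other arrays. All its values were under the median level of the arrays. So were the values of 1453232_at and 1453233_s_at on every array except wildtype replicate 7 and mutant replicate 8. The probe sets of Calr3 therefore disagreed, and which transcripts each one detects was not tested.

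Pdilt codes for a testis isomerase-like partner of calmegin. Its main probe set, 1454033_at, read 7.38, 7.60, 7.46, 7.75 and 8.92 on the wildtype arrays and 6.71, 7.68 and 8.72 on the mutant arrays. Its other probe set, 1431867_a_at, read 6.68, 6.88, 7.09, 7.03 and 8.17 on the wildtype arrays and 6.11, 7.13 and 8.04 on the mutant arrays. Both gave the highest values on wildtype replicate 7 and mutant replicate 8 and the lowest on mutant replicate 3. On the main probe set the rise within genotype was 1.38 in wildtype replicate 7 (2.59-fold) and 1.52 in mutant replicate 8 (2.87-fold), and on the other probe set it was 1.25 and 1.42.

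Clgn, the germ cell homolog of calnexin, varied less than Calr3 and Pdilt on their main probe sets. Its main probe set, 1457829_at, read 11.64, 11.68, 11.40, 11.40 and 11.22 on the wildtype arrays and 11.50, 11.63 and 11.15 on the mutant arrays. Here wildtype replicate 7 and mutant replicate 8 were the lowest of all, by 0.31 and 0.41 below the mean of the other arrays of their genotype. The other probe sets of Clgn did not repeat this fall on both arrays. In wildtype replicate 7 and mutant replicate 8 they departed by 0.035 and 0.050 (1418617_x_at) and by 0.030 and -0.080 (1430240_a_at). They spanned 0.17 (1418617_x_at, 11.98 to 12.15) and 0.13 (1430240_a_at, 11.48 to 11.61) over the 8 arrays, and the main one 0.53. The median span was 0.226 over the 1970 probe sets with a mean level above 11 and 0.377 over all probe sets.

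**Figure D1:**
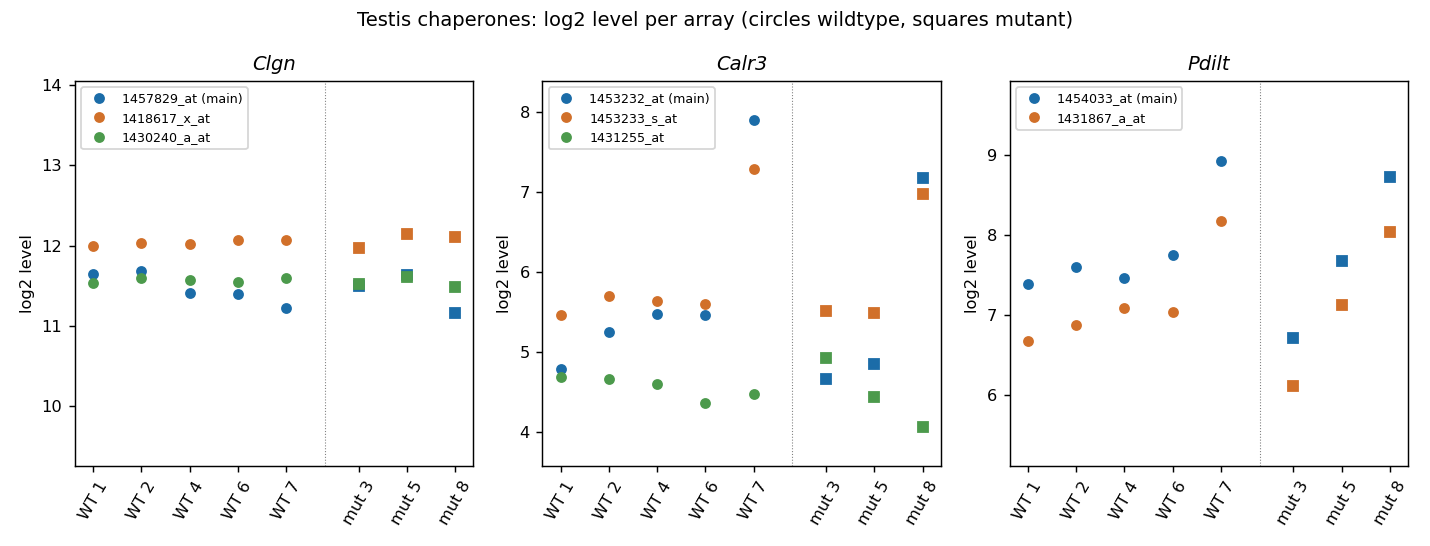
Log2 level (y axis) of each probe set of Clgn, Calr3 and Pdilt on each array (x axis; circles, wildtype; squares, mutant; colours, probe sets). Each panel spans the same number of log2 units. On the main probe set of Calr3 wildtype replicate 7 reads 7.90 and mutant replicate 8 reads 7.18, against at most 5.47 on the other 6 arrays, while all Clgn values lie between 11.15 and 12.15.

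The general chaperones were steadier than Calr3 and Pdilt. Over the 8 arrays their 14 probe sets spanned 0.15 to 0.60, and the testis probe sets 0.13 to 3.24. In wildtype replicate 7 the general probe sets departed from the mean of the other wildtype arrays by -0.23 to 0.32, and in mutant replicate 8 from the other mutant arrays by -0.29 to 0.25. The testis probe sets fell into separate sets, with 4 of Calr3 and Pdilt at 1.25 to 2.66 and 1.42 to 2.42 and the other 4 at -0.31 to 0.03 and -0.62 to 0.05.

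**Figure D2:**
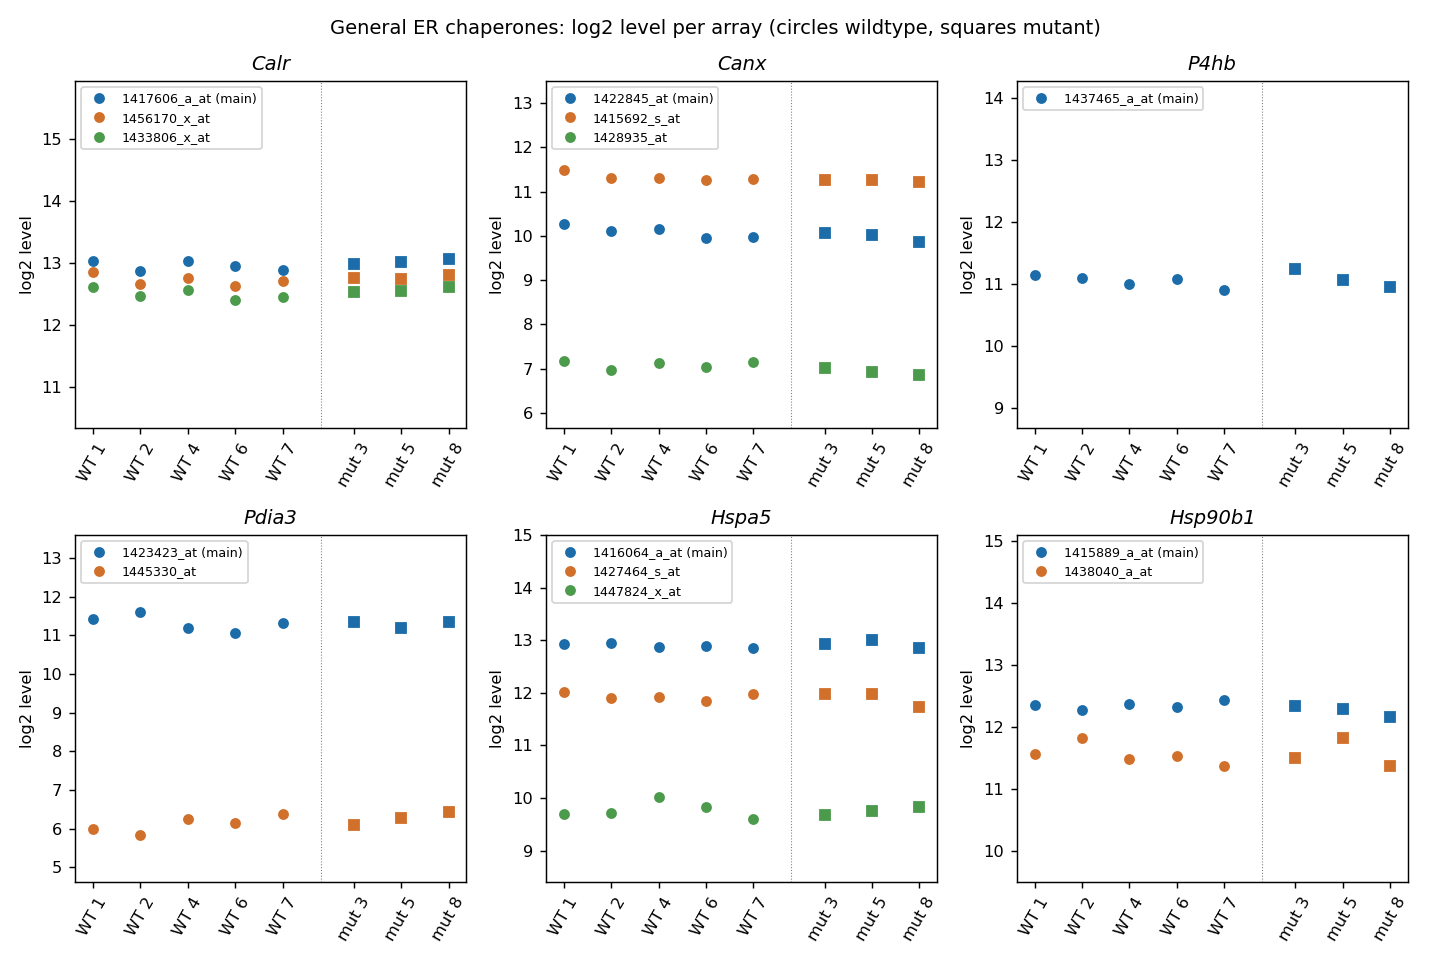
Log2 level (y axis) of each probe set of the 6 general chaperones on each array (x axis; circles, wildtype; squares, mutant; colours, probe sets). No general probe set spans more than 0.60 over the 8 arrays, the widest being Pdia3 1445330_at.

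Calr, the general calreticulin, read 13.04, 12.88, 13.04, 12.94 and 12.88 on the wildtype arrays and 12.97, 13.01 and 13.06 on the mutant arrays (1417606_a_at). Canx, the general calnexin, read 10.28, 10.10, 10.15, 9.96 and 9.98 on the wildtype arrays and 10.07, 10.01 and 9.86 on the mutant arrays (1422845_at). The genotypes overlapped in both genes. The main probe set of Pdia3 (1423423_at) ranged from 11.07 to 11.60 and that of Hspa5 (1416064_a_at) from 12.86 to 13.01. The single probe set of P4hb (1437465_a_at) ranged from 10.91 to 11.24, with wildtype replicate 7 and mutant replicate 8 the lowest, and the main probe set of Hsp90b1 (1415889_a_at) ranged from 12.16 to 12.44. The general probe set that was highest on those arrays was Pdia3 1445330_at, with 6.37 and 6.42 against 5.82 to 6.26 on the other 6, whereas the main probe set of Pdia3 did not have that order.

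Between genotypes, no member passed the test. With limma, 0 of the 45101 probe sets passed an adjusted p of 0.05 (0% of those tested), and 1564 (3.47%) had an unadjusted p under 0.05. Of the 22 members' probe sets 0 had an unadjusted p under 0.05, and 0 had genotypes that did not overlap, against 2.70% of all probe sets. In bulk RNA, fewer cells of a type and less RNA per cell cannot be told apart. The arrays are few, and the exact permutation test of 5 against 3 cannot give a two-sided p below 0.0179.

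The main probe set of Calr3 had a wildtype mean of 5.78 ± 1.22 (SD, n = 5) and a mutant mean of 5.56 ± 1.40 (SD, n = 3), a difference of -0.21 (SE 0.74) with a two-sided exact permutation p of 0.804. The interval of that difference, from -1.86 to 1.43, was the widest of the 22. The means of Pdilt were 7.82 ± 0.63 and 7.70 ± 1.0, a difference of -0.12 (SE 0.45, exact permutation p = 0.911). Those of Clgn were 11.47 ± 0.19 and 11.43 ± 0.25, a difference of -0.04 (SE 0.13, exact permutation p = 0.821), with an interval of -0.34 to 0.26. All 8 testis probe sets lay between -0.21 and 0.06, with 2 higher and 6 lower in mutant testis and a median of -0.06, where the median over all probe sets was 0.0032.

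The 14 general probe sets lay between -0.16 and 0.13, with 7 higher and 7 lower and a median of -0.0091. Calr was higher on each of its 3 probe sets, by 0.045 to 0.066, and Canx lower on each of its 3, by -0.16 to -0.081. The largest difference relative to its standard error was that of Canx 1428935_at, which read 6.98 to 7.18 on wildtype and 6.86 to 7.02 on mutant arrays. Its difference was -0.16 (SE 0.072, exact permutation p = 0.0536), and limma gave it an unadjusted p just above the threshold. On the main probe sets, the differences of P4hb (0.04, SE 0.085), Pdia3 (-0.03, SE 0.12), Hspa5 (0.03, SE 0.062) and Hsp90b1 (-0.09, SE 0.069) were all within 2 standard errors.

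**Figure D3:**
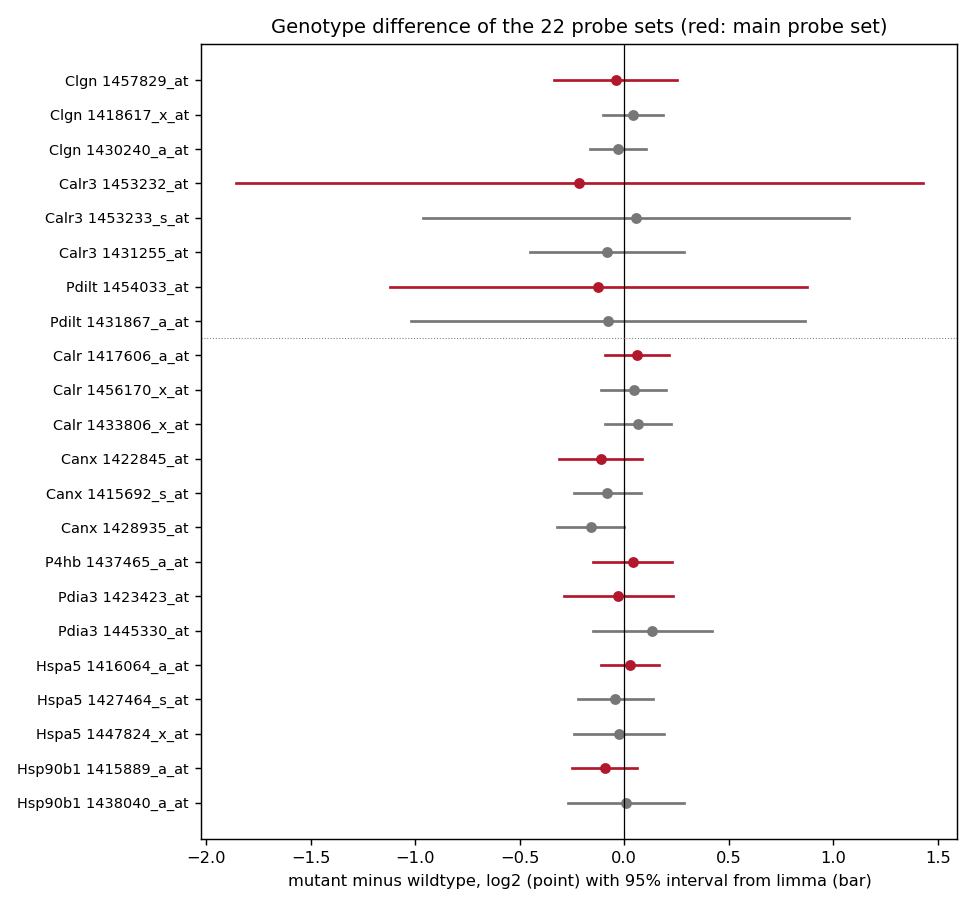
Mutant minus wildtype log2 difference (x axis; points) with its 95% interval from limma (bars) for the 22 probe sets (y axis; red, main probe set; the dotted line parts testis from general chaperones). The bars of Calr3 1453232_at (-1.86 to 1.43) and of both Pdilt probe sets are wider than those of every general probe set, and every bar reaches 0.

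Since the arrays that stand apart hold 1 sample of each genotype, the difference could also be taken within each kind of array. For the main probe set of Calr3 it was -0.49 (SE 0.18) among the other 6 arrays, and mutant replicate 8 was -0.72 from wildtype replicate 7. With those arrays as a block the limma difference was -0.55 (SE 0.15), with an unadjusted p of 0.00378 and an adjusted p of 0.803. For the other Calr3 probe sets the block gave -0.16 (SE 0.078) on 1453233_s_at and -0.04 (SE 0.14) on 1431255_at. For the main probe set of Pdilt the values were -0.36 (SE 0.22) among the other 6, -0.21 between the pair and -0.32 (SE 0.18, limma adjusted p = 0.890) with the block, and for that of Clgn 0.03, -0.07 and 0.006. No member passed the adjusted threshold in these fits. The block is defined from expression values and no label names it. Calr3 itself was high on those arrays, so the SE and p with the block do not measure the spread between samples. They are a description and no test. With the block 2644 of the 45101 probe sets had an unadjusted limma p under 0.05.

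Markers of other cell stages moved with the rise of Calr3 and Pdilt. All 18 probe sets of 11 spermatid genes were highest on wildtype replicate 7 and mutant replicate 8. Among them were Prm1 and Tnp1, which code for the protamine and transition protein that package sperm DNA. This order was known beforehand, since earlier results of these data had set these arrays apart for their spermatid RNA, and it is a description only. The mean level of the list was 8.45, 8.91, 9.04, 9.01 and 10.89 on the wildtype arrays and 8.31, 8.55 and 10.48 on the mutant arrays. The main probe set of Prm1 rose within genotype by 3.19 and 3.21 and that of Acrv1, an acrosome protein, by 1.52 and 1.71. The mean of the spermatocyte list stayed between 10.01 and 10.23, and 1 of its 11 probe sets was highest on those arrays. Among fat genes 7 of 10 probe sets were highest there too, with Adipoq, which codes for the hormone adiponectin, at 8.39 and 8.27 against at most 6.62. Crisp1, an epididymal gene, read 6.38 on mutant replicate 8 and 5.82 on wildtype replicate 1 against at most 3.34 elsewhere. The other epididymal genes measured did not have that rise. Lcn5 read 5.13 and 4.96 on these arrays against 4.98 to 5.40 elsewhere, and Defb2 5.86 and 5.70 against 5.63 to 5.74. Some other markers were lowest on those arrays, with 6 of 13 peritubular and 4 of 14 spermatogonial probe sets, against 10.3% of all probe sets. The spermatogonial ones were of Zbtb16 and Stra8 alone, and Gfra1 1421973_at was highest there. The spermatogonial list averaged 7.84 in wildtype replicate 7 and 7.92 in mutant replicate 8, against 7.88 to 8.16 in the other 6, so it did not have that order. The peritubular list averaged 7.07 in wildtype replicate 7, 7.13 in mutant replicate 8 and 7.14 to 7.28 in the other 6. The part of these cells in the chaperone levels was not tested.

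All 18 spermatid probe sets had a lower mean in mutant testis, with a median difference of -0.18 and 0 at an unadjusted p under 0.05. They measure 11 genes that all rose on the same arrays, so they are not 18 separate observations. The mean of each genotype leans on its array that stands apart. There the list averaged 10.89 (wildtype) and 10.48 (mutant), against 8.31 to 9.04 elsewhere. With both set aside the median difference was -0.35, and between the pair it was -0.48. Leaving out only one of them was not tested for this list. The within-kind differences of Calr3 moved with that list, whose median difference with the block was -0.35. Its part in those differences was not tested.

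**Figure D4:**
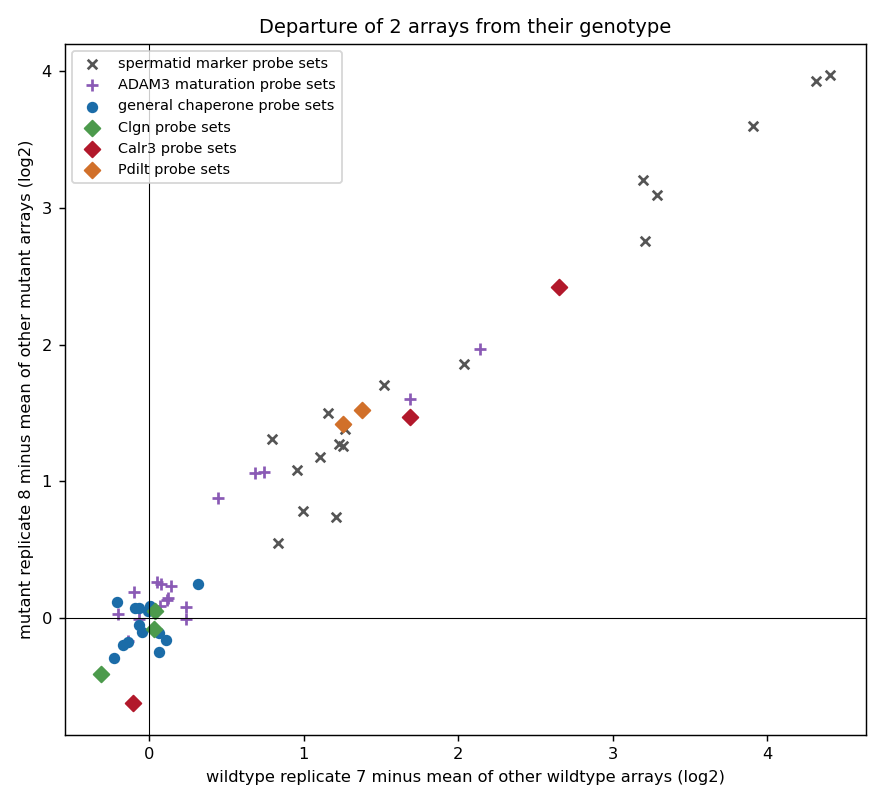
Departure of wildtype replicate 7 from the mean of the other wildtype arrays (x axis, log2) against that of mutant replicate 8 from the mean of the other mutant arrays (y axis, log2), 1 point per probe set. Of the chaperones, 2 Calr3 and 2 Pdilt probe sets lie among the spermatid markers, from 1.25 to 2.66 on the x axis, and the general chaperones lie between -0.23 and 0.32.

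The order of the arrays was compared as well. From lowest to highest the spermatid mean ran from mutant 3, wildtype 1, mutant 5, wildtype 2, wildtype 6 and wildtype 4 to mutant 8 and wildtype 7. The main probe set of Calr3 had this same order on 8 of 8 arrays, as had 28 of all probe sets (0.0621%), 26 of them outside the spermatid list. The main probe set of Pdilt had 5 arrays at the same rank, that of Clgn 0, and no general probe set more than 2. Wildtype replicates 4 and 6, neighbours in that order, both read 5.47 on the main Calr3 probe set, so their order there rests on less than the rounding. On that probe set every array except mutant 8 and wildtype 7 read under the median level of the arrays. The other Calr3 probe sets had 2 arrays (1453233_s_at) and 1 array (1431255_at) at the same rank.

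**Figure D5:**
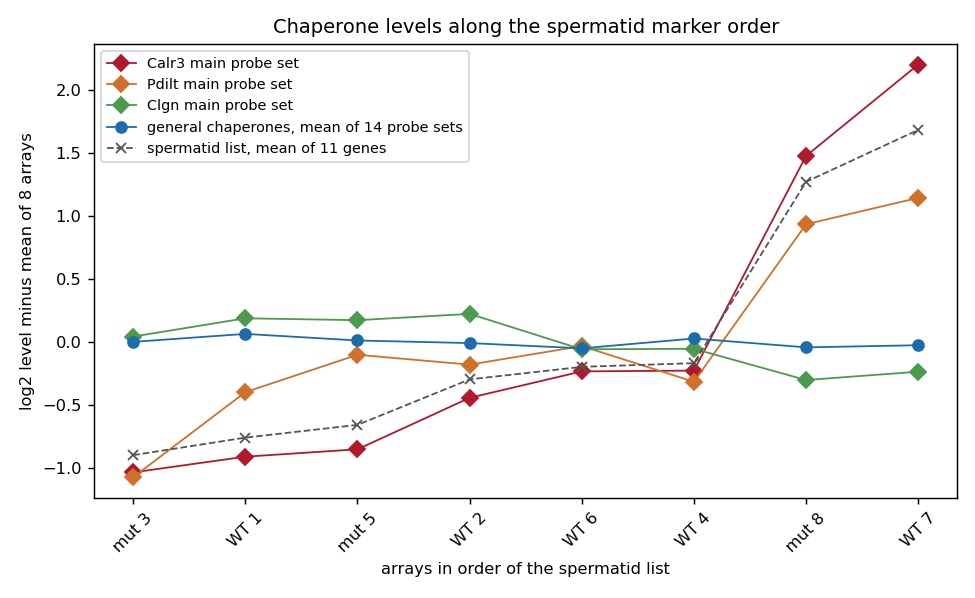
Log2 level minus the mean of the 8 arrays (y axis) for the main probe sets of Calr3, Pdilt and Clgn, the mean of the 14 general probe sets and the mean of 11 spermatid genes, with arrays in the order of the spermatid mean (x axis). The Calr3 line climbs at each step from 4.67 in mutant replicate 3 to 7.90 in wildtype replicate 7 in log2 level, and the general chaperones stay flat.

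The genes most like each member over the 8 arrays were sought by Pearson correlation among main probe sets above the median level, 11958 for Calr3 and 11957 for each other member. These values share the arrays that stand apart and are a description. Each gene named is among the closest of all these candidates over only 8 arrays, so a high r is partly due to the choice. Calr3 was followed most closely by Fam166a (r = 0.998), Txndc2 (0.998), a thioredoxin-domain gene of spermatids, and Abhd2 (0.997). Over the other 6 arrays Fam166a gave 0.982 and Txndc2 0.978. Those arrays were among the 8 used for the choice, so this is no separate check. The lowest such value among the genes named was 0.722, for Elovl2 with Hsp90b1. Pdilt was followed by Csrnp3 (0.998), Gsg1 (0.997), a germ cell gene, and Slc22a14 (0.997). Clgn was followed by Kdm7a (0.996), Anapc1 (0.987), a subunit of the anaphase-promoting complex, and Top1 (0.986), each lower on the pair that stands apart. Among the general chaperones P4hb was nearest to Vcp (0.986), the ATPase that pulls proteins from the ER for degradation, then to Pgls and Tgfb1i1. Hsp90b1 was nearest to Rac2 (0.980), Elovl2 and Cd55b, and Hspa5 to Prpsap2 (0.977), Usp34 and Tfb2m. Canx was nearest to Micu2 (0.969) and Slpi, Calr to Snhg10 (0.969), 1700072H12Rik and Trbv31, and Pdia3 to Timeless (0.935), Srp19 and Spice1.

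The clients and partners of the testis chaperones were examined next, from a list of 13 genes needed for ADAM3 on sperm, 11 of which had 18 probe sets. ADAM3 itself is the surface protein that lets sperm pass into the oviduct and bind the egg coat, and ADAM2 is a subunit of fertilin. Adam3 read 12.08 to 12.41 and Adam2 12.98 to 13.16 over the 8 arrays, and in wildtype replicate 7 and mutant replicate 8 Adam3 departed by 0.24 and -0.0092 and Adam2 by 0.067 and 0.088. Neither gene had the rise of Calr3 and Pdilt.

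Other genes of the list had it, though not on all their probe sets. Adam6a read 6.02, 6.16, 6.41, 6.64 and 8.45 on the wildtype arrays and 5.96, 6.21 and 8.06 on the mutant arrays, a rise of 2.14 and 1.97. Prss37, a protease-like protein of spermatids, rose by 1.69 and 1.60 on its main probe set and Adam1a by 0.68 and 1.06. In all, 6 of the 18 probe sets were highest on both arrays, against 8.60% of all probe sets. They were 2 each of Adam1a and Prss37 and 1 each of Adam6a and Ace. Other probe sets of Adam1a did not have this order, among them 1443377_at (-0.096 and 0.19), nor did the main one of Ace (0.073 and 0.25). Prss37 1442795_x_at read 3.42 to 3.69, under the median level of the arrays. Tpst2, a protein-tyrosine sulfotransferase, was lowest. Between genotypes 0 of 18 passed after adjustment and the median difference was -0.051. The 1 probe set at an unadjusted p under 0.05 was that of Ly6k, a GPI-anchored partner of ADAM3, with -0.16 (SE 0.068), where 1.70% of all probe sets were lower in mutant testis at this threshold. The extremes by main probe set were Ace (0.12), a releaser of GPI-anchored proteins, and Prss37 (-0.20).

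The rest of the folding machinery also showed 0 adjusted calls. Of the other disulfide isomerase genes and their oxidases, 14 of 15 had 28 probe sets with a median difference of 0.015. Ero1a, the oxidase that recharges isomerases, was the 1 gene with an unadjusted p under 0.05, against 1.76% of all probe sets that were higher in mutant testis at that threshold. Its probe set 1419030_at read 7.57 to 7.73 on wildtype and 7.77 to 7.93 on mutant arrays, a difference of 0.18 (SE 0.068) without overlap, where 1.38% of all probe sets were higher in mutant without overlap. Its other probe sets differed by 0.06 and 0.05. Pdia5 (0.19) and Erp27 (-0.096) were the extremes by main probe set, but that of Erp27 read 3.85 to 4.24, under the median level of the arrays. On the arrays that stand apart Pdia6 1430983_at and Ero1a 1419029_at were highest, and 2 probe sets of Tmx4 were lowest. Neither count exceeded the share over all probe sets (8.60% highest and 10.3% lowest). The main probe set of Pdia6 departed by -0.059 and -0.037 and Ero1a 1419030_at by -0.10 and -0.096.

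The 17 genes of N-glycan quality control and ER-associated degradation, with 35 probe sets, had a median difference of 0.022. Man1b1, a mannosidase that marks misfolded glycoproteins, was the 1 with an unadjusted p under 0.05, with 0.26 (SE 0.092), and its genotypes overlapped. That is 1 of 35, where 1.76% of all probe sets were higher in mutant testis at this threshold. Edem1 1451218_at (0.12) and Derl1 1423082_at (0.12) were higher in mutant testis without overlap, which 1.38% of all probe sets were, at an unadjusted p over 0.05. The other probe set of Edem1 differed by -0.037 and those of Derl1 by 0.054, 0.065 and -0.059, all with overlap. By main probe set Uggt2 (-0.16) was lowest. On the arrays that stand apart, 2 probe sets of this list, both of Syvn1, were highest and 8 were lowest, against 8.60% and 10.3% of all probe sets. Of those 8, 4 belonged to Sel1l, a partner of the ubiquitin ligase coded by Syvn1, by -0.43 to -0.18 in wildtype replicate 7 and by -0.62 to -0.17 in mutant replicate 8, while the main probe set of Sel1l (1436774_at, -0.044 and -0.085) did not have that order. The other 4 were 2 of Os9, 1 of Erlec1 and that of Vcp.

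The 13 cofactor genes of BiP and GRP94, with 30 probe sets, had a median difference of -0.00031. Of them 3 probe sets were lower at an unadjusted p under 0.05, against 1.70% of all probe sets. Cnpy2, a saposin-like ER protein, differed by -0.28 (SE 0.082) on 1459846_x_at without overlap, where 1.31% of all probe sets were lower in mutant without overlap. Its other probe sets differed by -0.12, -0.0093 and 0.013. The value of -0.0093 is from its main probe set, which read 3.78 to 3.94, under the median level of the arrays. Dnajc3, a co-chaperone of BiP, differed by -0.21 (SE 0.088) on 1449373_at without overlap and was lower on each of its other 4 probe sets, by -0.17 to -0.063. Hyou1, the ER Hsp110 that exchanges nucleotide on BiP, read 10.01, 9.25, 9.84, 9.89 and 8.83 on the wildtype arrays and 8.37, 9.64 and 8.32 on the mutant arrays. Its difference of -0.79 (SE 0.35) came with overlapping genotypes, and its other probe sets differed by -0.29 and 0.14. Manf (0.067) was highest by main probe set. On the arrays that stand apart Creld2 was highest and 2 probe sets of Sec63 were lowest, neither above the share over all probe sets (8.60% and 10.3%).

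Of the 12 genes of the unfolded protein response, 0 of 28 probe sets had an unadjusted p under 0.05 and the median difference was 0.018. By main probe set the extremes were Eif2ak3, the kinase PERK (0.094), and Atf6b (-0.098). That of Eif2ak3 read 3.58 to 3.89, under the median level of the arrays, so its difference says little about the gene. On wildtype replicate 7 and mutant replicate 8, 3 probe sets were highest (2 of Atf4, 1 of Atf6) and 4 lowest (3 of Xbp1, 1 of Atf6), shares near the 8.60% and 10.3% of all probe sets. The probe sets of Atf6 thus went both ways.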

How the data were processed

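RNA of 8 testis samples (5 wildtype, 3 mutant; groups and replicate numbers from the sample titles) had been hybridised to Mouse430_2 arrays. The authors used Affymetrix software with RMA background correction and quantile normalisation, with versions not given in the sources used here. Log2 levels of each probe set on each array, as deposited by the authors, were used without a filter. Its further columns and 2 other tables held the authors' own comparisons (fold changes and p-values) and were not used.

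The genotypes were compared over all 45101 probe sets by a two-sided moderated test in limma 3.58.1 under R 4.3.3 (lmFit, eBayes), and p-values were adjusted by Benjamini-Hochberg. The fit was tested on simulated data. The members' 22 probe sets were also compared by exact two-sided permutation of the 8 arrays. Other steps used Python 3.11.15, pandas 2.3.3, numpy 2.4.6 and matplotlib 3.10.9.

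Gene names were updated through Entrez identifiers in a RefSeq table (GRCm38.p6), which named 33571 of 36858 probe sets with a single identifier (91.1%). Calr3 has 2 promoter windows and Clgn none. The array gives no read depth, so the number of arrays limits precision.

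Members and lists were chosen with earlier results of these data known. All members were named. Genes of other folding lists were named where a probe set had an unadjusted p under 0.05 or was the list's extreme by main probe set. The 3 genes most correlated with each member were named too, except 1 that is not reported here, and stage and tissue markers beside the arrays that stand apart. Probe sets without overlap, or highest or lowest on those arrays, were named after their values were seen.

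Alternatives were each array left out, both arrays that stand apart left out or blocked, array weights, median centring, repeated quantile normalisation, probe sets above the median level, main probe sets and other probe sets of a gene.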

Additional observations from a re-analysis of the deposited data

Results flagged for a closer look

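In the wildtype group, 5 of the members' 22 probe sets had 1 array far from the other 4, where chance alone gives about 1 in 20 for a single probe set. Several probe sets measure the same gene, and wildtype replicate 7 was set apart from expression values beforehand. The count is therefore a description and no test. Wildtype replicate 7 was high on Calr3 1453232_at (7.90, nearest other wildtype array 5.47) and on Calr3 1453233_s_at (7.29, nearest 5.70). The same array was high on Pdilt 1454033_at (8.92, nearest 7.75) and on Pdilt 1431867_a_at (8.17, nearest 7.09). Wildtype replicate 1 was high on Canx 1415692_s_at (11.49, nearest 11.31). The mutant group, with 3 arrays, was too small for this comparison.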

How the results depend on the processing

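No paired analysis was possible because no replicate number occurs in both genotypes. The count of probe sets past the adjusted threshold was 0 in each fit except with both arrays that stand apart as a block, where it was 1, not a member. The unadjusted count of 1564 became 2644 with the block, 2956 without both arrays, 675 of 20664 main probe sets and 707 of 22550 probe sets above the median level. Leaving out 1 array gave 1220 to 2649, the most without mutant replicate 8. The median difference of the general chaperones ranged from -0.029 to 0.034 with 1 array left out, that of the testis chaperones from -0.22 to 0.17 (above 0 without mutant replicate 3 or wildtype replicate 7) and testis minus general from -0.25 to 0.18. Without Pdilt, a choice made after seeing the data, the testis median was -0.037. Calr and Canx kept their direction in each alternative run. Clgn turned to 0.0086 with array weights, 0.0060 with the block, 0.033 without both arrays and 0.044 on 1418617_x_at. Calr3 turned to 0.056 on 1453233_s_at, Pdia3 to 0.13 on 1445330_at, Hspa5 to -0.042 and -0.026 on its other probe sets, and Hsp90b1 to 0.0076. With 1 array left out, Clgn ranged from -0.14 to 0.095, Calr3 from -1.02 to 0.32 (above 0 without mutant replicate 3, mutant replicate 5 or wildtype replicate 7), Pdilt from -0.63 to 0.37 (above 0 without mutant replicate 3 or wildtype replicate 7), P4hb from -0.035 to 0.11, Pdia3 from -0.092 to 0.042 and Hspa5 from -0.0091 to 0.064. None of these member differences passed the adjusted threshold under any of these settings. The causes were not tested.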
